A study of Mus musculus with 6 samples.

Results

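Mitochondrially encoded genes were examined in regulatory T cells (Treg) recovered from a bone marrow graft. The members were the rows of the gene table whose symbol begins with mt-, and 32 such rows were found among 29199 genes. They comprised 2 ribosomal RNAs (rRNAs), 13 protein-coding genes (mRNAs) and 17 transfer RNAs (tRNAs), against the 37 mitochondrial genes of the reference annotation. No row was found for mt-Tf, mt-Td, mt-Tk, mt-Th and mt-Ts2, which were not analysed here. After the filter on low counts, 24 members were tested among 18321 genes: both rRNAs, all 13 mRNAs and 9 tRNAs.

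The 6 libraries, 3 per group, held spleen Treg taken 3 weeks after grafting. All Treg were wild type (WT), came from B6 mice with a Foxp3-Thy1.1 reporter, and had been expanded in culture with anti-CD3/CD28 beads, TGFb and 500 IU/mL IL-2 before transfer. Irradiated B6 hosts received them with B6 and B6D2F1 marrow and naive conventional CD4+ T cells (Tconv). The Tconv were WT in the group called Treg with WT Tconv, and lacked HP1a, a heterochromatin protein encoded by Cbx5, in the group called Treg with HP1a KO Tconv. The knockout was a germline deletion by a CMV-cre transgene on a mixed 129/Sv and C57BL/6 background, with littermates as WT donors, and mice were 6 to 12 weeks old. The question was what the genotype of the Tconv changed in the Treg, so Cbx5 in the Treg is no check of the knockout. The sources used here do not say whether a library came from 1 mouse or from pooled mice, so p-values measure the spread between these libraries, which may be technical. Since the libraries are bulk, fewer cells of a type and less RNA per cell cannot be told apart.

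The mitochondrial genome is a small circle of DNA that encodes core subunits of the respiratory chain and ATP synthase, together with the rRNAs and tRNAs of the mitochondrial ribosome's own translation system. Both strands are transcribed as long precursors, which are cut largely at the tRNAs that punctuate the other genes. In Treg, oxidative phosphorylation is a main source of energy and is tied to suppressive function.

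Total counts per library lay between 87421755 and 119078882. Treg genes (Cd4, Cd3e, Foxp3, Il2ra, Ikzf2 and Ctla4) were all present, with a summed level of 3802 to 4577 counts per 1000000 (CPM). Treg with WT Tconv replicate 3 stood apart: its 7 red cell genes summed to 6155 CPM against 393 to 736 CPM in the other libraries, and its 8 neutrophil genes to 1847 CPM against 42.4 to 229.9 CPM. Its 7 macrophage or monocyte genes summed to 178.8 CPM against 12.9 to 48.4 CPM. The B cell genes (14.2 to 24.4 CPM), dendritic cell genes (7.90 to 21.5 CPM), NK cell genes (7.97 to 12.4 CPM) and CD8 T cell genes (5.82 to 8.85 CPM) were low in every library. The plasma cell list summed to 215 to 277.5 CPM, nearly all from Xbp1 and Prdm1, which activated T cells also use, while Tnfrsf17 was at 0 in every library but Treg with WT Tconv replicate 3.

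Members that share sequence with each other or with the nucleus are shown first, because the values below rest on how their reads were assigned. The genes of ATP synthase subunits 8 and 6 overlap on the mitochondrial chromosome (chrM) of GRCm39, and a nuclear copy on chromosome 1 carries the same bases. Capitals mark the 43 bases that belong to both mt-Atp8 and mt-Atp6, from chrM:7902-7994 (plus strand) and chr1:24653665-24653757 (minus strand).
mt-Atp8 and mt-Atp6: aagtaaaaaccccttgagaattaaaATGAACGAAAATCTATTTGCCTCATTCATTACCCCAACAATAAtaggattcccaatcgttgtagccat
Copy on chromosome 1: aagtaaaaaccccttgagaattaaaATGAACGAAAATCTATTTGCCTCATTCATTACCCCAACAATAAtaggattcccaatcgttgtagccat
The copy is the longest found for any stretch of chrM: 4654 aligned bases at chr1:24650616-24655269, minus strand, matched chrM 6390 to 11042 at 99.936% identity with 2 mismatches and 1 gap. It holds the whole of mt-Co2, mt-Atp8, mt-Atp6, mt-Co3, mt-Nd3 and mt-Nd4l, and part of mt-Co1 (31.3% of its length) and of mt-Nd4 (63.6%). The 5 mRNAs wholly outside it are mt-Nd1, mt-Nd2, mt-Nd5, mt-Nd6 and mt-Cytb. Other nuclear copies of at least 95% identity hold 49.2% of mt-Nd2, 52.4% of mt-Nd5 and 23.6% of mt-Rnr2, and none of mt-Nd1, mt-Nd6, mt-Cytb or mt-Rnr1, though a copy on chromosome 4 matches chrM 12488 to 15356, with mt-Nd6 and mt-Cytb, at 93.0% identity. No row was found for the 8 annotated nuclear genes inside the chromosome 1 copy, which were not analysed here.

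The only mRNA transcribed from the other strand is mt-Nd6, which encodes a membrane subunit of respiratory complex I. Its end overlaps the end of mt-Nd5 by 14 bases, in capitals below as each strand reads them at chrM:13527-13590, and these overlapping ends are shown because counts of mt-Nd6 and mt-Nd5 are compared further on.
mt-Nd5 end, plus strand: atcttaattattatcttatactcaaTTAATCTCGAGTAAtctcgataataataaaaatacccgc
mt-Nd6 end, minus strand: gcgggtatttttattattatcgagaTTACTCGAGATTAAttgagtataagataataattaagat
On the same strand, mt-Te, the glutamate tRNA, directly precedes mt-Nd6. Its 69 bases are in capitals at chrM:14041-14139, minus strand.
mt-Te and start of mt-Nd6: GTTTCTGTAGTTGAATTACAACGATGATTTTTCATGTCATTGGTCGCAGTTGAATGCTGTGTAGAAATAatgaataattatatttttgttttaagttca
The rRNAs are joined in the same way, with mt-Tv, the valine tRNA, filling the whole gap between them. Capitals mark its 69 bases at chrM:1005-1113, plus strand, and no base lies between mt-Tv and either rRNA.
mt-Rnr1, mt-Tv and mt-Rnr2: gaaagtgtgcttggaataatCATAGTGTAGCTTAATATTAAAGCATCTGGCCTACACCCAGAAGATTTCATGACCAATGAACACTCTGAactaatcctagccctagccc

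Mitochondrial rRNA was several-fold lower in 1 library than in the other 5, and the mRNA sum was not. Summed rRNA was 19257, 22469.6 and 22481 CPM in Treg with WT Tconv replicates 1 to 3, and 19552, 4042 and 22167 CPM in Treg with HP1a KO Tconv replicates 1 to 3. The other 5 libraries were close to each other, and Treg with HP1a KO Tconv replicate 2 lay 4.76- to 5.56-fold below them. Summed mRNA was 5893, 5345 and 5624 CPM with WT Tconv and 5663, 5669 and 6613 CPM with HP1a KO Tconv, so the rRNA-poor library sat among the others in this sum, most of which is mt-Co1. Without mt-Co1 it was the lowest library in mRNA too, at 734.9 CPM against 947.1 to 1276.6 CPM in the others, and over the 5 mRNAs outside the chromosome 1 copy it was at 537.9 CPM against 717.9 to 1009.6 CPM. Summed tRNA was 8.11, 4.65 and 5.22 CPM against 4.51, 4.72 and 4.80 CPM, with all but the highest WT library close together. The groups overlapped in rRNA, mRNA and tRNA alike.

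**Figure D1:**
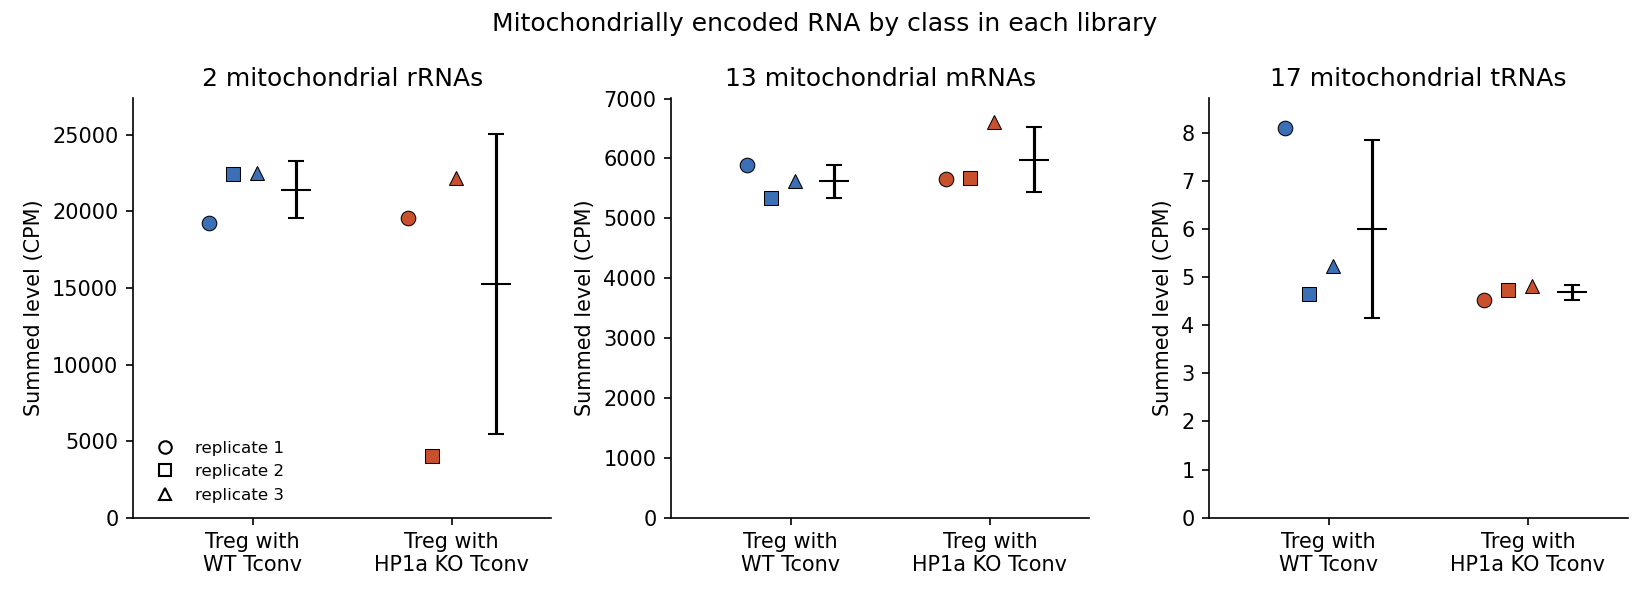
Summed level in CPM of the mitochondrial rRNAs, mRNAs and tRNAs; each symbol is a library (circle, square and triangle for replicates 1, 2 and 3) and the bar is the group mean ± SD of 3 libraries. Replicate 2 of Treg with HP1a KO Tconv is at 4042 CPM of rRNA while every other library is at 19257 CPM or above, and it is within the range of the others in tRNA and in the mRNA sum, which is mostly mt-Co1; without mt-Co1 it is lowest, at 734.9 CPM against 947.1 to 1276.6 CPM.

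As group means, rRNA came to 21402 ± 1858 CPM in the WT group and 15254 ± 9797 CPM in the knockout group (SD, n = 3 each), a log2 ratio of -0.49. Without replicate 2 of the knockout group this ratio was -0.04. The mRNA means were 5620.5 ± 274 and 5982 ± 547 CPM (SD, n = 3 each), a log2 ratio of 0.09. This ratio was 0.01 without replicate 3 of the knockout group. With all libraries but without mt-Co1 it was -0.03. Together the members held 2.52 to 2.88% of all counts in 5 libraries and 0.972% in the rRNA-poor library. The ratio of rRNA to mRNA counts, which does not depend on the library total, was 3.27, 4.20 and 3.997 with WT Tconv and 3.45, 0.713 and 3.35 with HP1a KO Tconv. These sums were not tested.

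The rRNAs of the small and the large mitochondrial ribosomal subunit fell short in that library to different extents. Small-subunit mt-Rnr1 (chrM:70-1024, plus strand) was at 1538, 1857 and 1765 CPM with WT Tconv and at 1626, 218.9 and 1933 CPM with HP1a KO Tconv. Large-subunit mt-Rnr2 (chrM:1094-2675, plus strand) was at 17719, 20612 and 20716 CPM against 17926, 3823 and 20234 CPM. Replicate 2 of the knockout group was thus 7.02- to 8.83-fold below every other library in mt-Rnr1 and 4.64- to 5.42-fold below in mt-Rnr2. The other 2 knockout libraries lay inside the WT range in mt-Rnr2, and in mt-Rnr1 replicate 1 lay inside it and replicate 3 just above. The count ratio of mt-Rnr2 to mt-Rnr1 was accordingly 17.5 in that library and 10.5 to 11.7 in the others. Between groups this ratio was 11.5, 11.1 and 11.7 against 11.03, 17.5 and 10.5, with no difference found (two-sided exact permutation test, p = 1, where 0.1 is the smallest possible).

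The fitted log2 fold change of HP1a KO over WT Tconv was -0.48 ± 0.84 (SE) for mt-Rnr1 and -0.52 ± 0.66 for mt-Rnr2, with adjusted p of 0.826 and 0.757 (edgeR's quasi-likelihood test, Benjamini-Hochberg over all genes tested). Without replicate 2 of the knockout group they were 0.02 ± 0.11 and -0.07 ± 0.10. The standard errors shrank with that library gone, and the intervals of both then lay around 0.

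Other RNAs of the rRNA-poor library were read beside this result. The nuclear transcript Malat1, an abundant noncoding RNA of the nucleus, was at 13579, 14896 and 12739.6 CPM with WT Tconv and 12490.1, 6793 and 10639.8 CPM with HP1a KO Tconv, lowest in the same library. The nuclear rRNA row Rn18s-rs5 was lowest there too, at 26.3 CPM against 34.7 to 116.3 CPM, whereas AY036118, another row from the rRNA repeat, was within the range of the others at 41.0 CPM. Rpph1 (22.2 against 25.7 to 43.1 CPM) and Rn7s2 (62.4 against 82.5 to 687 CPM) were lowest there as well, and Rn7s1 was not. The 6 listed nuclear rRNA and abundant noncoding RNAs summed to 7026 CPM there and to 11519 to 15149 CPM elsewhere, nearly all of it Malat1. Foxp3 (157.9 against 199.6 to 254.2 CPM), Il2ra (123.9 against 158.7 to 200.7 CPM) and Cd3e (150.6 against 184.9 to 220.9 CPM) were likewise lowest in this library, as was Cd4 by a small margin (706.9 against 716.3 to 851.3 CPM), and Ikzf2 and Ctla4 were not. The part of these differences in the mitochondrial values was not tested.

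Per length, the large-subunit rRNA had the highest mean level and mt-Co1 the highest of the mRNAs in both groups. This order is of the reads as assigned: the rRNAs are what was left after their depletion, and mt-Co1, the genes inside the chromosome 1 copy and, for part of their length, mt-Nd2, mt-Nd4, mt-Nd5 and mt-Rnr2 may have shared reads with nuclear copies. On the scale of CPM per kb of gene, mt-Rnr2 averaged 12441 ± 1075 (SD, n = 3) with WT Tconv. It was followed by mt-Co1, the catalytic subunit of cytochrome c oxidase, at 2965 ± 130, and by mt-Rnr1 at 1801 ± 172. Next came mt-Cytb, the cytochrome b of complex III, at 321 ± 35.1, and mt-Nd1, a complex I subunit, at 312 ± 24.7, which did not differ from each other beyond their spread. From mt-Nd4 at 72.5 ± 7.69 down to mt-Nd5 at 37.4 ± 3.33, each gene lay within the spread of its neighbour in the order mt-Nd4, mt-Co3, mt-Nd2, mt-Nd3, mt-Co2, mt-Nd6, mt-Atp6, mt-Atp8 and mt-Nd5. The lowest mRNA was mt-Nd4l, at 6.79 ± 4.99 CPM per kb. With HP1a KO Tconv the order of the means was the same except for mt-Nd6, which at 22.9 ± 4.83 CPM per kb (SD, n = 3) came below mt-Nd5 at 35.7 ± 9.85.

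**Figure D2:**
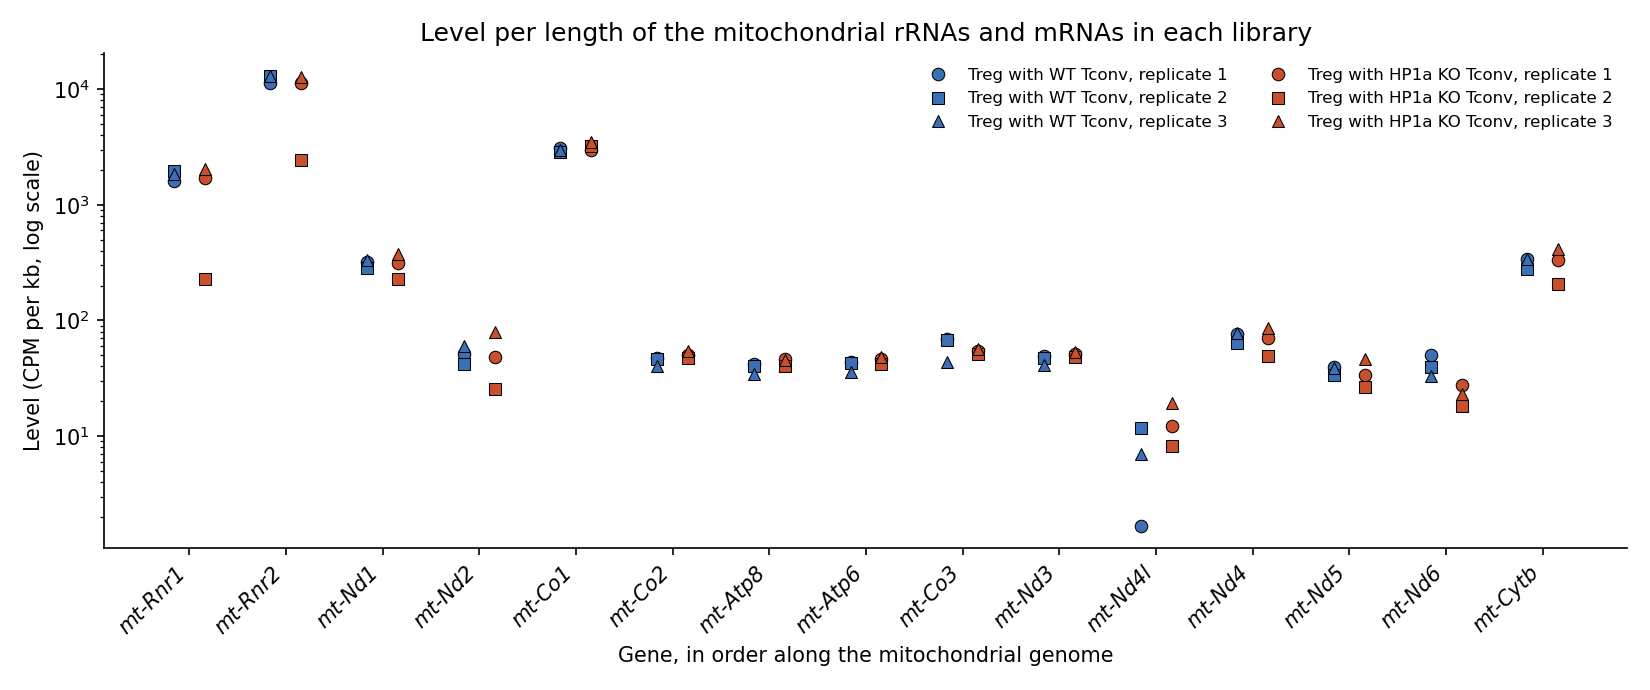
Level of each mitochondrial rRNA and mRNA in CPM per kb of gene (log scale), in order along the mitochondrial genome; each symbol is a library, blue for Treg with WT Tconv and red for Treg with HP1a KO Tconv. The red square, replicate 2, is far below the rest in mt-Rnr1 and mt-Rnr2, and mt-Nd6 is lower in all 3 red symbols than in all 3 blue ones.

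Of the mRNA counts, mt-Co1 alone took 80.7 to 82.3% in 5 libraries and 87.04% in the rRNA-poor library. Its level was 4795, 4398 and 4551 CPM with WT Tconv and 4620, 4934 and 5337 CPM with HP1a KO Tconv. The groups overlapped, and the fitted log2 fold change was 0.08 ± 0.08 (SE; edgeR adjusted p = 0.703). All of mt-Co1 lies in nuclear copies of at least 95% identity, so how its reads were shared with them is uncertain.

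The complex I subunits mt-Nd1, mt-Nd2, mt-Nd4 and mt-Nd5 and cytochrome b overlapped between groups, and the rRNA-poor library was the lowest of the 6 in each of them. For mt-Nd1 (chrM:2751-3707), levels were 306.7, 272 and 318 CPM with WT Tconv and 297, 216.7 and 360.05 CPM with HP1a KO Tconv. For mt-Nd2 (chrM:3914-4951) they were 52.8, 43.2 and 62.6 against 50.3, 26.4 and 82.4 CPM. In both genes the knockout libraries held the lowest and the highest value, and the WT libraries lay between. The same was true of mt-Nd4 (chrM:10167-11544), at 104.7, 87.7 and 107.2 against 97.4, 67.9 and 119.1 CPM, and of mt-Nd5 (chrM:11742-13565), at 72.8, 61.4 and 70.7 against 62.1, 48.9 and 84.4 CPM. Cytochrome b, mt-Cytb (chrM:14145-15288), was at 391.8, 320.5 and 388 CPM against 381.5, 236.5 and 470.8 CPM. In every one of these genes replicate 2 of the knockout group was lowest and replicate 3 highest.

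Together with mt-Nd6, described next, 6 mRNAs were thus lowest in the rRNA-poor library, at 0.501 to 0.707 of the median of the other 5. The other 7 mRNAs were within the range of the others in that library. Fold changes of the 5 plus-strand genes among the 6 were small, from -0.11 ± 0.22 (SE) for mt-Nd4 to -0.03 ± 0.46 for mt-Nd2 on the log2 scale. Without replicate 2 of the knockout group they all turned positive, from 0.07 ± 0.14 for mt-Nd5 to 0.30 ± 0.29 for mt-Nd2. None passed the threshold either way.

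**Figure D3:**
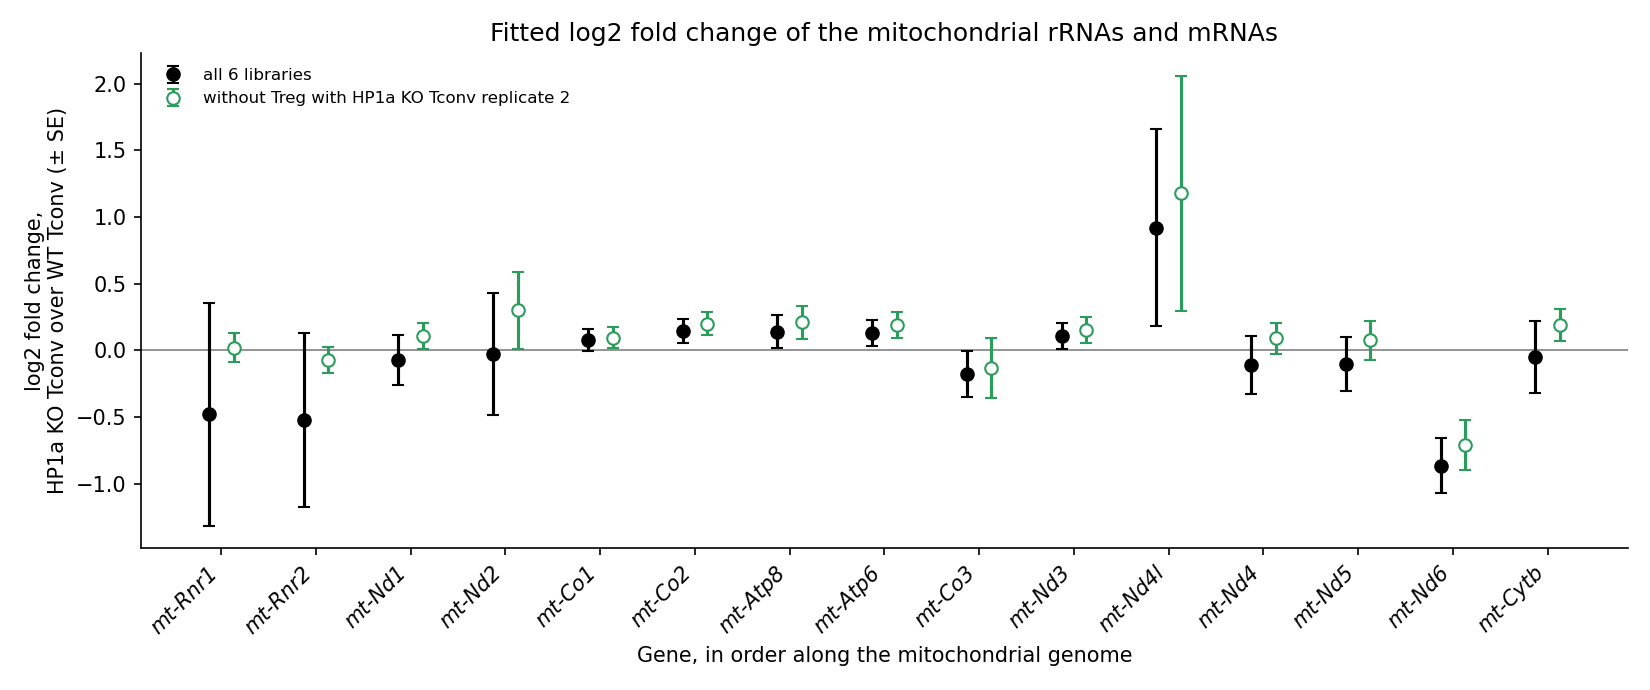
Fitted log2 fold change of HP1a KO over WT Tconv with its SE (edgeR) for the mitochondrial rRNAs and mRNAs in genome order, from all 6 libraries (filled) and without replicate 2 of Treg with HP1a KO Tconv (open). mt-Nd6 is at -0.86 and stays below 0 without that library, where mt-Rnr1 moves from -0.48 to 0.02.

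The mRNA with the smallest p-value between groups was mt-Nd6 (chrM:13552-14070, minus strand). Its counts were 2498, 2015 and 2049 with WT Tconv and 1308, 913 and 1043 with HP1a KO Tconv, or 25.9, 20.4 and 17.2 CPM against 14.4, 9.39 and 11.9 CPM. Every knockout library was below every WT library. The fitted log2 fold change was -0.86 ± 0.20 (SE), or 0.549-fold, and it did not pass the threshold in edgeR's quasi-likelihood test (adjusted p = 0.209). DESeq2 gave the same size, -0.87 ± 0.18, and called it (adjusted p = 0.00065), a call that no other alternative made. Leaving out 1 library at a time moved the edgeR estimate between -0.69 and -1.02, and without replicate 2 of the knockout group DESeq2 gave -0.72 (adjusted p = 0.00407). Without replicate 1 of the WT group the DESeq2 call was lost, at -0.71 (adjusted p = 0.0506).

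Relative to plus-strand mRNAs of the same library, mt-Nd6 was also lower in each knockout library. The count ratio of mt-Nd6 to mt-Nd5, its overlapping neighbour that lies in part in nuclear copies, was 0.356, 0.333 and 0.244 with WT Tconv and 0.232, 0.192 and 0.141 with HP1a KO Tconv. The ratio to mt-Cytb, which lies beyond mt-Te and in no copy of at least 95% identity, was 0.0662, 0.0638 and 0.0443 against 0.0378, 0.0397 and 0.0253. In neither ratio did the groups overlap, though for mt-Nd5 the lowest WT and the highest knockout library were close. Each gave p = 0.1 in a two-sided exact permutation test, the smallest that 3 libraries against 3 can give, and both ratios were chosen after the values of mt-Nd6 were seen. Replicate 3 had the lowest ratio of its group in both ratios and both groups. Whether strand was used in counting is not given in the sources used here, so reads of mt-Nd6 and of transcripts antisense to it may not have been told apart.

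**Figure D4:**
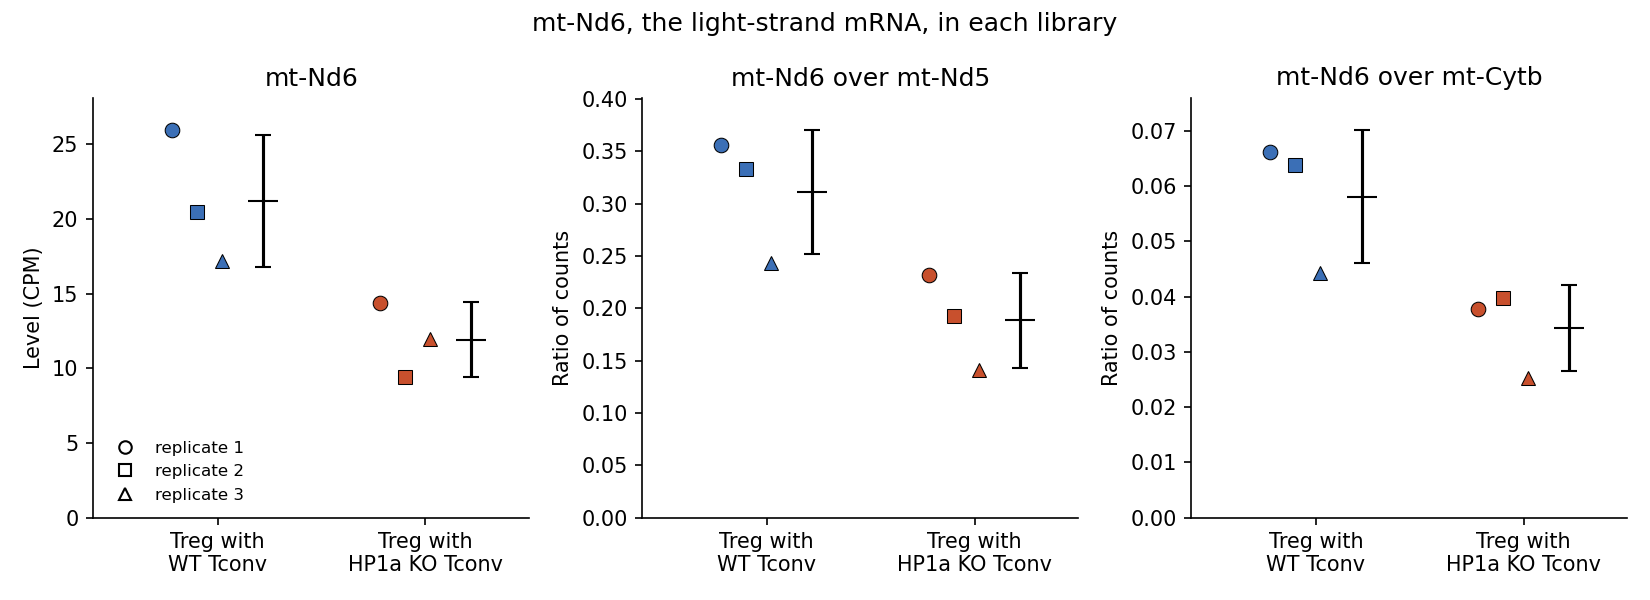
Level of mt-Nd6 in CPM and its count ratio to mt-Nd5 and to mt-Cytb; each symbol is a library and the bar is the group mean ± SD of 3 libraries. In all 3 panels the lowest Treg with WT Tconv library is above the highest Treg with HP1a KO Tconv library.

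Of the 6 mRNAs wholly inside the chromosome 1 copy, 4 had nearly fixed counts whatever the depth of the library. For mt-Co2, a core subunit of cytochrome c oxidase, counts were 3102, 3140 and 3287 with WT Tconv and 3128, 3143 and 3229 with HP1a KO Tconv. For mt-Atp6, the membrane subunit of ATP synthase next to its rotor, they were 2858, 2864 and 2908 against 2864, 2801 and 2877. For mt-Atp8, a small subunit of the same enzyme, they were 826, 808 and 838 against 851, 795 and 815. The highest count of these genes was 1.04 to 1.07 times the lowest, while library totals differed 1.36-fold. The complex I subunit mt-Nd3 did the same, with 1649, 1621 and 1719 counts against 1624, 1637 and 1608.

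The variance of these counts over their mean was 1.59 for mt-Co2, 0.508 for mt-Atp8, 0.425 for mt-Atp6 and 0.964 for mt-Nd3. Counts in proportion to depth would spread more than this. Among all 10186 genes that averaged 500 counts or more, 41 (0.403%) had a variance under 2 times the mean, against these 4 of the 12 mitochondrial mRNAs at that depth, and the median over all was 68.8. The whole of each of these 4 genes lies in the copy shown above, but so does mt-Co3, the third mitochondrial subunit of cytochrome c oxidase, which was not as even. Its counts were 5231, 5186 and 4092 with WT Tconv and 3902, 3936 and 3902 with HP1a KO Tconv, with 4 libraries close to each other and 2 WT libraries above. The complex I subunit mt-Nd4l was not even either, with 48, 341 and 249 against 333, 237 and 497. The variance over the mean was 96.5 for mt-Co3 and 77.5 for mt-Nd4l. What made the counts even was not tested, and levels of the genes inside the copy are uncertain.

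**Figure D5:**
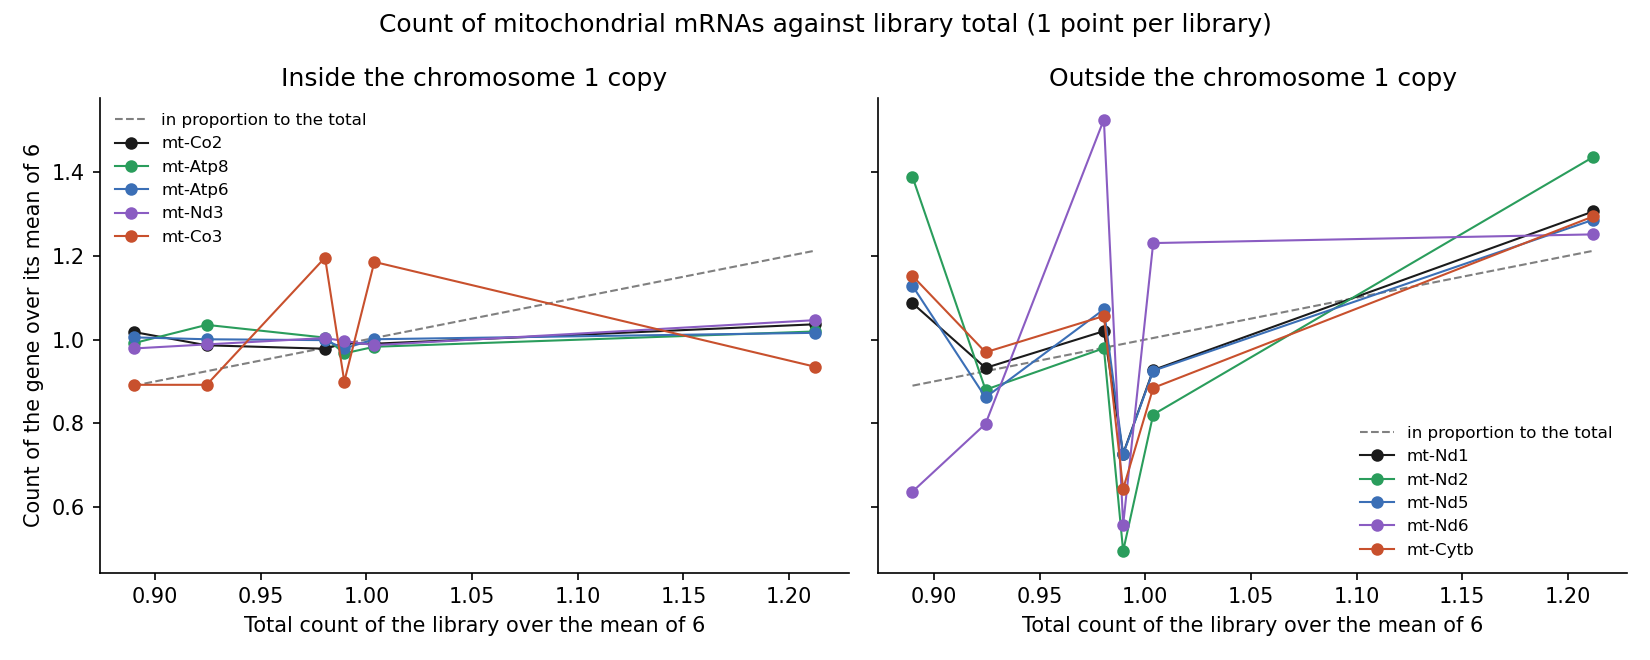
Count of each mRNA over its mean of the 6 libraries (vertical) against the library total over its mean (horizontal), 1 point per library and 1 line per gene, for 5 mRNAs wholly inside the chromosome 1 copy (left; mt-Nd4l not drawn) and the 5 wholly outside it (right). The dashed line is a count in proportion to the total; mt-Co2, mt-Atp8, mt-Atp6 and mt-Nd3 stay near 1 at every depth.

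Scaled to the library, the even genes came out slightly higher with HP1a KO Tconv, with log2 fold changes of 0.14 ± 0.09 (SE) for mt-Co2, 0.14 ± 0.12 for mt-Atp8, 0.13 ± 0.10 for mt-Atp6 and 0.11 ± 0.10 for mt-Nd3. None passed the threshold, with edgeR adjusted p of 0.518 to 0.642. Before scaling, their mean counts were no higher with HP1a KO Tconv. They were 3176 with WT and 3167 with HP1a KO Tconv for mt-Co2, and 824 and 820 for mt-Atp8. For mt-Atp6 they were 2877 and 2847, and for mt-Nd3 1663 and 1623. The positive fold changes thus came with the scaling to library totals. The library with the largest total, replicate 3 of the WT group, had their lowest CPM. Without it the estimates were 0.076 for mt-Co2, 0.061 for mt-Atp8, 0.048 for mt-Atp6 and 0.043 for mt-Nd3. For mt-Co3 the estimate was -0.18 ± 0.17 and for mt-Nd4l 0.92 ± 0.74, and their groups overlapped. Both moved with single libraries. In the WT group, mt-Co3 was at -0.059 without replicate 1, -0.071 without replicate 2 and -0.36 without replicate 3, and mt-Nd4l at 0.47 without replicate 1 and 1.57 without replicate 2. Without replicate 3 of the knockout group mt-Nd4l was at 0.56.

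A second nuclear copy, on chromosome 2, differs more from chrM (97.4% identity over 3260 aligned bases) and has rows of its own. Its pseudogene Gm13340 (chr2:22478115-22479659, minus strand) had 740, 683 and 949 counts in the WT group against 573, 791 and 724 in the knockout group, and the groups overlapped. Gm13341 (chr2:22477303-22477974, minus strand) had 479, 453 and 675 counts against 387, 372 and 390, and every knockout library was below every WT library. Their log2 fold changes were -0.03 ± 0.14 (SE) and -0.32 ± 0.15, with edgeR adjusted p of 0.940 and 0.369. Their counts were low beside the 419551 to 541884 counts of mt-Co1, all of which the same copy carries.

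Transfer RNAs were scarce, with 410 to 781 counts in all per library, and RNA had been purified on columns that retain short RNA poorly. The highest were mt-Tt, the threonine tRNA, mt-Tp, the proline tRNA, mt-Tw, the tryptophan tRNA, and mt-Ts1, a serine tRNA. For mt-Tt (chrM:15289-15355, plus strand) counts were 165, 94 and 110 with WT Tconv and 47, 52 and 68 with HP1a KO Tconv, with no overlap. Its log2 fold change was -1.004 ± 0.32 (SE) and did not pass the threshold (edgeR adjusted p = 0.241), and DESeq2 gave it no adjusted p. Without replicate 1 of the WT group it was -0.65. For mt-Tp (chrM:15356-15422, minus strand), which directly follows mt-Tt on the chromosome, counts were 162, 63 and 77 against 96, 45 and 69, and the groups overlapped. For mt-Tw they were 102, 52 and 108 against 58, 76 and 90, and for mt-Ts1 95, 51 and 114 against 67, 80 and 72. In mt-Tt, mt-Tp and the class as a whole, replicate 1 of the WT group was the highest library.

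Of the 8 tRNA rows from the same strand as mt-Nd6, 6 were tested, and all 6 had a negative log2 fold change, with a median of -0.40. That common sign was lost without replicate 1 of the WT group, where mt-Tp was at 0.23 and mt-Ts1 at 0.073, and without replicate 3 of that group, where mt-Ts1 was at 0.049. The groups did not overlap in 1 of the 6, the alanine tRNA mt-Ta, chosen for mention after its values were seen, with 48, 32 and 24 counts against 18, 13 and 15, beside 11.6% of all genes that did not overlap with the knockout group lower. Its log2 fold change was -1.05 ± 0.46 (SE; edgeR adjusted p = 0.343). Of the 3 tested plus-strand tRNAs, 2 were negative and 1 positive. Summed over all rows of a strand, the log2 ratio of mean CPM was alike, -0.35 for tRNAs of the mt-Nd6 strand and -0.36 for plus-strand tRNAs. Replicate 1 of the WT group was highest in both sums. It was at 4.95 CPM against 2.51 to 3.14 CPM in the others for the mt-Nd6 strand. For the plus strand it was at 3.16 CPM against 1.38 to 2.30 CPM. The 8 untested tRNAs averaged at most 7.67 counts, among them mt-Tv and mt-Te of the sequences shown above, with 1 count of mt-Tv in all 6 libraries and 0 to 9 counts of mt-Te per library. A tRNA count may come from uncut precursor RNA as well as from the tRNA, and these cannot be told apart here. Of the tested tRNAs, mt-Tw, mt-Ta, mt-Tc, mt-Ty and mt-Ts1 lie wholly in nuclear copies of at least 95% identity. Their levels are therefore uncertain as well.

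Across the members, no gene passed an adjusted p of 0.05 in edgeR, which called 0 of all 18321 genes tested (0.00%). At an unadjusted p under 0.05, 3 of 24 members were lower with HP1a KO Tconv (mt-Nd6, mt-Tt and mt-Ta) and none was higher, against 7.52% of all genes lower and 6.98% higher. In the same 3 members the groups did not overlap with the knockout group lower, in none higher, against 11.6% and 11.5% of all genes, so the count of members is close to the background. DESeq2 called 1 member, mt-Nd6, and 4.35% of the genes it gave an adjusted p, while limma-voom called none. The median log2 fold change was -0.09 over the 24 members and -0.01 over all genes tested, with 7 members positive and 17 negative.

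Nuclear genes serving mitochondrial gene expression were counted as the rest of the pathway, in 4 lists with 71 genes in all. None was called in edgeR, 10 were higher and 2 lower at an unadjusted p under 0.05 (6.98% and 7.52% of all genes), and DESeq2 called 1 (4.35% of all genes with an adjusted p). The log2 fold change was positive for 53 and negative for 18, with a median of 0.07. It was positive for 7 of 12 genes of transcription and replication, for 10 of 17 of RNA processing and turnover, for 9 of 10 of rRNA modification and ribosome assembly, and for 27 of 32 of translation and tRNA charging. Over all genes tested 48.5% were positive. The groups did not overlap in 21 of the 71 genes with the knockout group higher and in 4 with it lower, beside the 11.5% and 11.6% of all genes given above.

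Among the transcription and replication genes, Polrmt, the mitochondrial RNA polymerase, was at 13.96, 13.8 and 14.7 CPM with WT Tconv and 15.9, 18.0 and 20.4 CPM with HP1a KO Tconv, and the groups did not overlap. Its log2 fold change was 0.32 ± 0.11 (SE; edgeR adjusted p = 0.249). Tfb2m, a transcription factor that opens the mitochondrial promoters, was at 21.4, 22.2 and 22.1 CPM against 21.0, 15.9 and 18.7 CPM, with an estimate of -0.28 ± 0.11 (adjusted p = 0.324). Without replicate 2 of the knockout group, its lowest library, the Tfb2m estimate was -0.17. Polg2, the accessory subunit of the mitochondrial DNA polymerase, was at 35.0, 35.6 and 35.0 CPM against 31.5, 28.4 and 25.9 CPM. Every knockout library was below the WT libraries in Polg2 and in Tfb2m. Its estimate was -0.34 ± 0.09 (adjusted p = 0.209), and it was the gene that DESeq2 called (adjusted p = 0.0491). Tfam, which packages mitochondrial DNA and activates its transcription, had an estimate of 0.04 ± 0.08 and Ssbp1, the single-strand DNA binding protein, of -0.21 ± 0.09, and their groups overlapped.

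In the translation list, 3 genes had the smallest unadjusted p of all that were higher. Vars2, which charges the valine tRNA, was at 21.4, 21.7 and 22.6 CPM with WT Tconv and 26.5, 29.8 and 27.2 CPM with HP1a KO Tconv (log2 fold change 0.31 ± 0.08 SE, edgeR adjusted p = 0.209). Mtif3, an initiation factor, was at 12.6, 13.2 and 12.7 against 14.9, 18.8 and 17.1 CPM (0.36 ± 0.10, adjusted p = 0.220). Gtpbp3, which modifies tRNA wobble bases, was at 13.9, 14.6 and 13.8 against 16.3, 21.0 and 17.5 CPM (0.33 ± 0.11, adjusted p = 0.240). In all 3 the groups did not overlap, and the rRNA-poor library was the highest of the 6. Lrpprc, which stabilises mitochondrial mRNAs, was at 51.9 to 61.6 CPM and 56.9 to 62.2 CPM, with an estimate of 0.01 ± 0.08. The leucine synthetase Lars2, named after its values were seen, had the lowest estimate, -1.60 ± 1.03, from 10.2, 9.42 and 76.8 CPM against 7.70, 12.3 and 12.8 CPM, so that replicate 3 of the WT group alone was high.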

How the data were processed

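Total RNA of 6 Treg libraries was sequenced as paired-end reads after preparation with a stranded total RNA kit (TruSeq Gold) that is made to remove cytoplasmic and mitochondrial rRNA, so rRNA values are of what remained. The authors trimmed reads with Trim Galore and Cutadapt, aligned them with STAR to GRCm39 with Ensembl annotation 107, and estimated counts per gene with Salmon, as the nf-core workflow for RNA-seq does. The deposited table holds these estimated counts, not normalized and as whole numbers. Use of strand in counting is not given in the sources used here.

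Levels are CPM, each count over the total of all rows in its library. The 2 groups were compared in edgeR 4.0.16 (R 4.3.3) by the quasi-likelihood F-test (robust, TMM scaling, filterByExpr, group as the only term), with Benjamini-Hochberg adjustment over all 18321 genes tested and a threshold of 0.05. Overlap of groups was judged on TMM-scaled CPM. DESeq2 1.42.0, limma-voom (limma 3.58.1), other scalings and filters, and fits without each library were alternatives. The fits were tested on data simulated with edgeR's own estimates of spread, in which DESeq2 made more false calls than edgeR. Data made in this way may favour edgeR. Counting error was small against the spread between libraries for the rRNAs and most mRNAs, but not for mt-Co2, mt-Atp8, mt-Atp6 and mt-Nd3. For the tRNAs it was a larger part of the spread than for most mRNAs. Their variance over the mean ran from 0.8 for mt-Tg to 22.0 for mt-Tt.

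Nuclear copies of chrM of at least 100 aligned bases and 90% identity were found with BLAST 2.17.0 in GRCm39, and gene positions are from GENCODE vM39, a later annotation than the authors'. Members and lists were chosen with earlier results of these data known. Named were all rRNAs and mRNAs, the 4 tRNAs with the highest mean count, Polrmt, Tfam, Tfb2m and Lrpprc, the 3 nuclear factors with the smallest p in each direction, and nuclear copies with a mean of at least 100 counts. No 2 replicates agreed within sampling noise.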

Additional observations from a re-analysis of the deposited data

How the results depend on the processing

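With DESeq2 in place of edgeR, 1 mitochondrially encoded gene (mt-Nd6) and 1 nuclear factor (Polg2) were called in place of 0 and 0; over all genes it called 526, edgeR without the filter on low counts 38, and edgeR's main comparison 0. The calls of mt-Nd6 and Polg2 were made by DESeq2 alone. DESeq2 made more false calls than edgeR on simulated data, but these were drawn with edgeR's own estimates of spread. The simulation therefore cannot say how certain these calls are. Deviations from the group mean correlated at -0.04, 0.18 and 0.12 between libraries of the same replicate number, and at -0.22 to 0.12 between different numbers. Whether the replicate numbers pair the libraries was not tested. With a replicate block edgeR called 1 gene in all and 0 members or factors.
Of 28 named genes under 13 alternatives each, 17 kept their direction throughout. In the other 11 none passed the threshold under any alternative, and the log2 fold change crossed 0, nearly always on leaving out 1 library. Without single libraries it ran from -0.92 to 0.021 for mt-Rnr1 (-0.997 with limma-voom and all libraries), -0.25 to 0.11 for mt-Nd1, -0.50 to 0.30 for mt-Nd2, -0.31 to 0.089 for mt-Nd4, -0.34 to 0.074 for mt-Nd5, -0.28 to 0.19 for mt-Cytb, -0.68 to 0.23 for mt-Tp, -0.29 to 0.15 for mt-Tw, -0.31 to 0.073 for mt-Ts1, -0.017 to 0.089 for Tfam and -0.037 to 0.072 for Lrpprc. With total counts in place of TMM, mt-Nd2 was at 0.0048. The mean rRNA difference rests on replicate 2 of Treg with HP1a KO Tconv: the log2 ratio was -0.49 with it and -0.04 without. The tRNA log2 ratio of -0.36 shrank to -0.08 once replicate 1 of the WT group was left out. With 3 libraries a group, an exact permutation test of a single ratio cannot go below 0.1.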
